A study of Mus musculus with 33 samples.

Results

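The genes that flank Pthlh on mouse chromosome 6 were followed through 10 of them, Arntl2, Stk38l, Rassf8, Tead4, Ppfibp1, Mrps35, Ccdc91, Far2, Med21 and Tm7sf3. Pthlh encodes parathyroid hormone-related peptide (PTHrP) and is the gene deleted in this study. The 10 genes were taken by name from a table of 55487 genes, and some of them were chosen by their counts, which differed between PTHrP WT and PTHrP KO libraries. Their WT against KO values are therefore given as a description, and no test of these values is used to support anything. All 10 reached a sum of 10 reads in the 33 libraries, as 36527 genes did and as the tests required, although Far2 had 0 to 13 reads per library.

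RNA was sequenced from GFP+ cells that were sorted after a short culture from mammary tumors or from glands of mice without tumors. PTHrP WT mice were Pthrpwt/wt and PTHrP KO mice were Pthrpflox/flox. Every mouse in both genotypes carried Cre under the MMTV promoter, which is active in mammary epithelium, and the mTmG reporter, in which Cre switches membrane Tomato to membrane GFP. Tumor mice also carried the polyoma middle T antigen (PyMT) under the MMTV promoter, and tumor-free mice did not. WT tumors came from 3 mice each at 6, 8 and 10 weeks and 1 mouse at 12 weeks, and KO tumors from 3 mice each at 8, 10 and 12 weeks. WT glands came from 2 mice each at 6, 8, 10 and 12 weeks, and KO glands from 2 mice each at 8, 10 and 12 weeks. The floxed allele was made in C57BL/6 mice and then bred for several generations to FVB, the strain of the MMTV lines. DNA close to an allele that is kept by selection tends to stay with it through such crosses, so the 2 genotypes can differ in DNA beside Pthlh as well as in Pthlh itself. Loss of PTHrP and DNA carried with the floxed allele cannot be told apart by these groups, since no library had one without the other.

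PTHrP is a secreted peptide that signals through the parathyroid hormone receptor and cAMP, and in the mammary gland it is known for its part in bud formation and in calcium release from bone during lactation. Its neighbours have other roles. Arntl2 encodes a partner of the circadian protein CLOCK, and Stk38l encodes the kinase NDR2, which acts beside the Hippo pathway with MOB1 proteins. Tead4 encodes a DNA-binding partner of the Hippo effectors YAP and TAZ, and Rassf8 encodes a protein with a Ras association domain that is found at cell junctions. Med21 is a subunit of Mediator, Ppfibp1 a liprin, Mrps35 a protein of the mitochondrial ribosome, Ccdc91 a protein of Golgi traffic, Far2 a fatty acyl-CoA reductase and Tm7sf3 a membrane protein.

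Pthlh lies at chr6:147252101-147264183 on the minus strand of GRCm38. Rassf8 (chr6:145746748-145821079), Tm7sf3 (chr6:146602352-146642824), Med21 (chr6:146642547-146650732), Stk38l (chr6:146724995-146778812), Arntl2 (chr6:146796055-146833529), Ppfibp1 (chr6:146888487-147032025) and Mrps35 (chr6:147042764-147073991) lie on its centromere side. Ccdc91 (chr6:147475828-147632612) and Far2 (chr6:148047259-148182758) lie on its telomere side. Arntl2 ends 418.6 kb and Stk38l 473.3 kb from Pthlh, and Rassf8 ends 1431 kb from it. Tead4 (chr6:128224288-128300823) is 18950 kb away and is a neighbour only in the widest sense. Per kilobase of exon, the median level over the 33 libraries was highest for Stk38l (20.9 CPM per kb), followed by Ppfibp1 (13.6), Med21 (12.34) and Ccdc91 (12.1), and Arntl2 was at 2.04 CPM per kb, close to Pthlh itself at 1.72. CPM are the counts of a gene scaled to a common library size after TMM normalization.

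RefSeq promoter sequences, from 250 bases before to 50 after a gene's start, were at hand for 6 of the 10 genes. Those of Arntl2 and Stk38l are printed because these genes were called between KO and WT tumors, and that of Med21 because it holds the same motif as Stk38l while it was not called between genotypes. Capitals mark TGACGTCA, the full cAMP response element (CRE), which reads the same on both strands and was found in 1.79% of 32851 promoters. The E-box CACGTG, bound by CLOCK and its partners and also the same on both strands, was found in 7.15% of promoters and in none of the windows of these 6 genes. Both motifs were chosen after the values were seen, and the printed letters are those of the C57BL/6J reference, not of the mice sequenced. The Arntl2 window (chr6:146805280-146805579) belongs to a RefSeq start that lies 9475 bases from the start in the gene annotation.
Arntl2: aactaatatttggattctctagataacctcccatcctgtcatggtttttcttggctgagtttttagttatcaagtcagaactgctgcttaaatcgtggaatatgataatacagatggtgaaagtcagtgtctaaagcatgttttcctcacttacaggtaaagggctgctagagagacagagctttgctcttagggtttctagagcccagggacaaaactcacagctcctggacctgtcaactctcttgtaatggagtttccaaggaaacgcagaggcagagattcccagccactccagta
Stk38l: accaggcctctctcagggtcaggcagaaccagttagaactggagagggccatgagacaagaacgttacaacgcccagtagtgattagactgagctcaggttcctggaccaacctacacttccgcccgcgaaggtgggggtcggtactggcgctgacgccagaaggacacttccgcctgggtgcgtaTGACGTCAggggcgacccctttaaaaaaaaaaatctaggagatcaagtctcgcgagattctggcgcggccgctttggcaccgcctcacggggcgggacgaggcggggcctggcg
Med21: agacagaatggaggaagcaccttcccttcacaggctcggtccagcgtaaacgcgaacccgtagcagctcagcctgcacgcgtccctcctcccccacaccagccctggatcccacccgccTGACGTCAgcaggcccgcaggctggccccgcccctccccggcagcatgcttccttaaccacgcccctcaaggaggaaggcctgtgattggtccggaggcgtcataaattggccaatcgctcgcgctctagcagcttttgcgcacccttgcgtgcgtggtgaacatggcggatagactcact
The Stk38l window (chr6:146724680-146724979) holds 1 CRE, 64 bases before the start, and the Med21 window (chr6:146642329-146642628) holds 1 CRE, 131 bases before the start. All 3 windows are on the plus strand of GRCm38.p6. GC content was 43.3% in the Arntl2 window, 60.0% in that of Stk38l and 63.3% in that of Med21, against a median of 52.7% over all promoters.

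The libraries held between 28419983 and 130981596 counted reads, with a median of 46351179. KO libraries differed from WT libraries in the share of counted reads on ribosomal RNA genes that was left after depletion. That share was at most 0.447% in the 18 WT libraries, and 10 of 15 KO libraries were above it, at 0.743% to 12.0% in 6 tumors and 4.35% to 18.8% in 4 glands. The remaining 3 KO tumors and 2 KO glands were inside the WT range and are used below as a comparison within KO. Pthlh reads were counted over the whole gene, while Cre removes only the fourth exon, so the gene total does not check the deletion. Pthlh was at 1.46 to 6.67 CPM in WT tumors and at 1.35 to 2.29 CPM in KO tumors. In glands it was at 2.93 to 7.73 CPM in WT and 2.79 to 8.52 CPM in KO, so the genotypes overlapped in both tissues. The difference, WT minus KO on the log2 scale, was 0.28 (SE 0.27) in tumors and 0.50 (SE 0.26) in glands.

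Arntl2 was higher in KO than in WT cells, and it separated the 2 genotypes of tumors completely. In the 10 WT tumors it was at 3.04 CPM in the lowest, 4.88 in the median and 8.72 in the highest library. In the 9 KO tumors it was at 10.7 CPM in the lowest, 27.2 in the median and 30.6 in the highest library. Every KO tumor was thus above every WT tumor, which held with KO above WT for 0.0274% of all genes tested. At 8 and 10 weeks, the ages both genotypes had with 3 mice, the mean was 6.11 ± 1.95 CPM in WT and 23.7 ± 8.92 CPM in KO tumors (SD, n = 6 each). The log2 difference, WT minus KO, was -1.92 (SE 0.26). The 3 KO tumors with an rRNA share inside the WT range were at 28.2 to 30.6 CPM, and the other 6 were at 10.7 to 30.1 CPM. The lowest KO values, 14.1 and 10.7 CPM, were those of replicates 2 and 3 at 8 weeks. Without the KO libraries of high rRNA share and with additive terms for age the difference was -2.46 (SE 0.28), where the same terms with all libraries gave -2.09 (SE 0.23).

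In glands the Arntl2 difference had the same direction and was smaller. The 8 WT glands were at 5.48 CPM in the lowest, 9.54 in the median and 13.6 in the highest library. The 6 KO glands were at 12.35 CPM in the lowest, 19.9 in the median and 24.4 in the highest library. The ranges overlapped, and 4 of 6 KO glands were above the highest WT gland. The mean at 8, 10 and 12 weeks was 9.73 ± 2.46 CPM in WT and 18.8 ± 5.63 CPM in KO glands (SD, n = 6 each), a log2 difference of -0.92 (SE 0.25). Without the KO libraries of high rRNA share and with additive terms for age it was -0.94 (SE 0.36), where the same terms with all libraries gave -0.89 (SE 0.26).

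Stk38l, which lies directly beside Arntl2, was higher in KO than in WT tumors and close between genotypes in glands. In WT tumors it was at 49.5 CPM in the lowest, 66.1 in the median and 92.0 in the highest library. In KO tumors it was at 87.9 CPM in the lowest, 105.5 in the median and 119.5 in the highest library, and 8 of 9 KO tumors were above the highest WT tumor. The mean at 8 and 10 weeks was 69.3 ± 12.8 CPM in WT and 109.8 ± 6.05 CPM in KO tumors (SD, n = 6 each), a log2 difference of -0.67 (SE 0.13). The KO tumors with low and with high rRNA share both had a median of 105.5 CPM. In glands the WT range was 83.6 to 134.7 CPM with a median of 110.3, and the KO range was 75.6 to 139.6 CPM with a median of 130.1. Both the lowest and the highest gland were KO glands, and the log2 difference was -0.09 (SE 0.13). The annotation places the gene Gm44270 inside Stk38l on the same strand, where the reads of both cannot be told apart. Its log2 difference was -0.80 (SE 0.25) in tumors and -0.01 (SE 0.25) in glands.

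Rassf8 went the other way and was lower in KO than in WT glands, and lower in KO than in WT tumors at 8 and 10 weeks. In glands the 8 WT libraries were at 18.0 CPM in the lowest, 24.99 in the median and 33.5 in the highest. The 6 KO glands were at 13.35 CPM in the lowest, 15.5 in the median and 17.3 in the highest. The 2 groups did not overlap, which held with WT above KO for 0.252% of all genes tested. The mean at 8, 10 and 12 weeks was 25.1 ± 5.50 CPM in WT and 15.4 ± 1.55 CPM in KO glands (SD, n = 6 each), a log2 difference of 0.68 (SE 0.11). In tumors the 10 WT libraries were at 12.6 CPM in the lowest, 18.0 in the median and 20.4 in the highest, and the 9 KO libraries were at 10.97, 13.2 and 18.2 CPM. A single library on each side made the groups overlap, the only WT tumor at 12 weeks and replicate 1 of the KO tumors at 12 weeks. At that age the WT tumor, at 12.6 CPM, was below all 3 KO tumors, at 12.7 to 18.2 CPM. At 8 and 10 weeks the means were 17.8 ± 0.895 CPM and 12.6 ± 1.17 CPM (SD, n = 6 each), a log2 difference of 0.49 (SE 0.10). The KO glands of low and of high rRNA share were alike, at medians of 15.47 and 15.52 CPM.

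**Figure D1:**
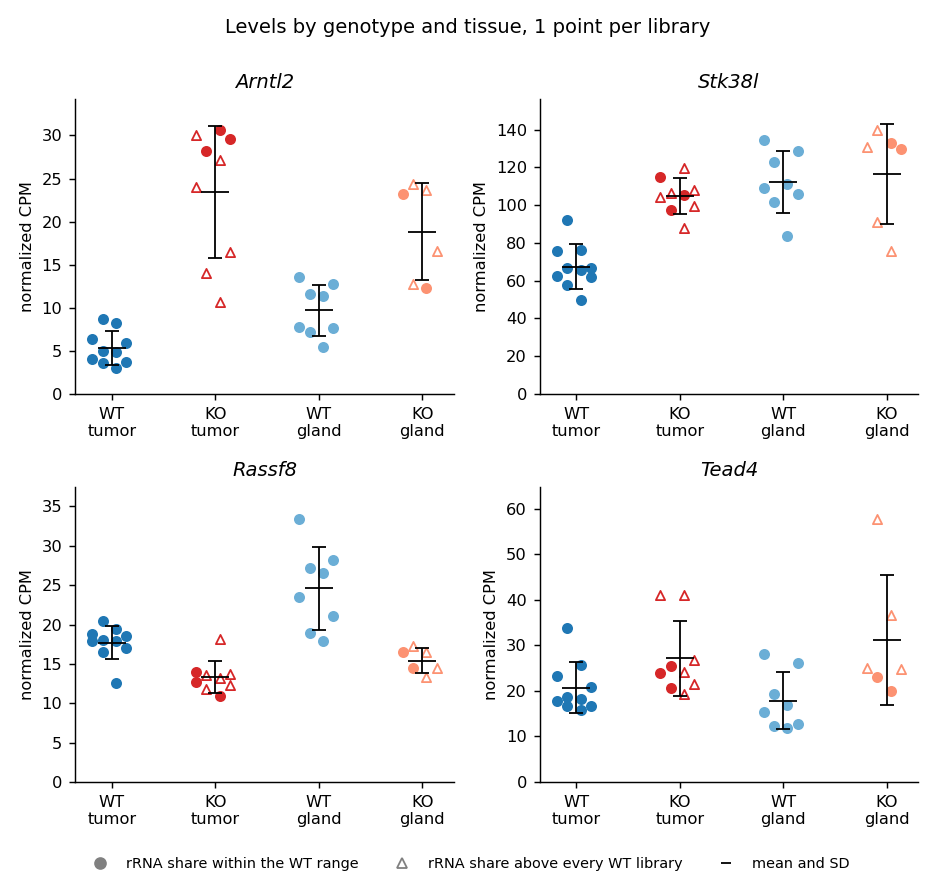
Normalized CPM of Arntl2, Stk38l, Rassf8 and Tead4 in each library, by genotype and tissue, with the group mean and SD as bars. Filled circles are libraries with an rRNA share inside the WT range and open triangles are KO libraries above it; the 9 KO tumors lie above all 10 WT tumors for Arntl2, and the 6 KO glands lie below all 8 WT glands for Rassf8.

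Tead4 was higher in KO than in WT means, and the difference was smaller without the KO libraries of high rRNA share. In WT tumors Tead4 was at 15.8 CPM in the lowest, 18.3 in the median and 33.7 in the highest library, and in KO tumors it was at 19.4, 24.2 and 41.0 CPM. In WT glands it was at 11.8, 16.2 and 28.1 CPM, and in KO glands at 20.004, 24.9 and 57.8 CPM, so the groups overlapped in both tissues. The highest KO gland was replicate 2 at 12 weeks, which also had the highest rRNA share of all libraries, 18.8%. The log2 difference was -0.59 (SE 0.19) in tumors and -0.80 (SE 0.19) in glands. In tumors at 8 weeks the means were 18.2 ± 0.359 CPM in WT and 34.2 ± 11.7 CPM in KO (SD, n = 3 each). At 10 weeks they were 18.6 ± 4.03 and 22.5 ± 2.70 CPM. The only WT tumor at 12 weeks, at 33.7 CPM, was above all 3 KO tumors of that age, at 21.5 to 26.9 CPM. With all ages and additive terms the log2 difference was -0.33 (SE 0.19) in tumors and -0.79 (SE 0.21) in glands. In the same fit without the KO libraries of high rRNA share it was -0.08 (SE 0.17) and -0.24 (SE 0.20). The 3 KO tumors of low rRNA share were at 20.7 to 25.6 CPM and the other 6 at 19.4 to 41.0 CPM, so these overlapped as well. The part of the rRNA share in these values was not tested.

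**Figure D2:**
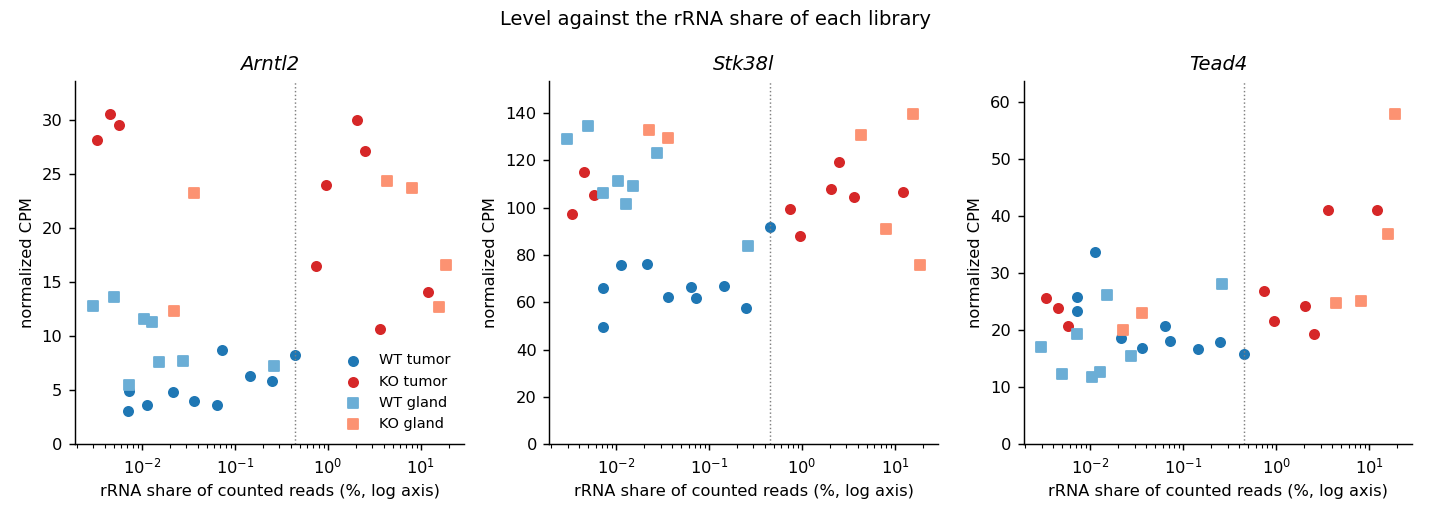
Normalized CPM of Arntl2, Stk38l and Tead4 against the percent of counted reads on rRNA genes, on a log axis, 1 point per library. The dotted line is the highest WT share, 0.447%; the 3 KO tumors left of it are at 28.2 to 30.6 CPM for Arntl2, and the highest Tead4 value, 57.8 CPM, is at the highest share.

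The levels of the remaining neighbours overlapped between genotypes in both tissues. Ppfibp1, which lies between Arntl2 and Pthlh, was at 116.1 to 178.0 CPM in WT and 118.5 to 148.9 CPM in KO tumors, and at 143.2 to 225.4 CPM in WT and 149.4 to 167.8 CPM in KO glands. Its log2 difference was 0.09 (SE 0.09) in tumors and 0.18 (SE 0.09) in glands. Mrps35, the next gene toward Pthlh, differed by 0.24 (SE 0.09) in tumors and 0.03 (SE 0.09) in glands. Ccdc91, the nearest of the 10 on the telomere side, was the steadiest, at 25.1 to 39.0 CPM over all 33 libraries with differences of 0.01 (SE 0.07) and 0.08 (SE 0.07). Med21 differed by -0.08 (SE 0.12) and -0.04 (SE 0.12). With all ages and additive terms the Med21 difference was -0.16 (SE 0.11) in tumors, and -0.38 (SE 0.12) when the KO libraries of high rRNA share were also left out. The 3 KO tumors of low rRNA share were at 52.3 to 56.5 CPM for Med21, inside or just above the WT tumor range of 32.7 to 55.1 CPM with its median of 43.8. In glands it reached -0.24 (SE 0.13) with the rRNA share as a covariate. Tm7sf3 was a little higher in WT, by 0.38 (SE 0.17) in tumors and 0.34 (SE 0.17) in glands. With all ages and additive terms it was 0.13 (SE 0.17) in tumors, and 0.02 (SE 0.23) when the KO libraries of high rRNA share were also left out. Tm7sf3 and Med21 overlap by 278 bases on opposite strands, and whether the counting used strand is not given in the sources used here, so reads in that stretch could belong to either gene.

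Far2 was at or near the floor. It had 3 reads or fewer in 22 of 33 libraries and 0 in 4, at most 0.263 CPM, and no fold is given for it. It also shares 3680 bases with Ergic2 on the other strand, which had a median of 4224 reads.

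**Figure D3:**
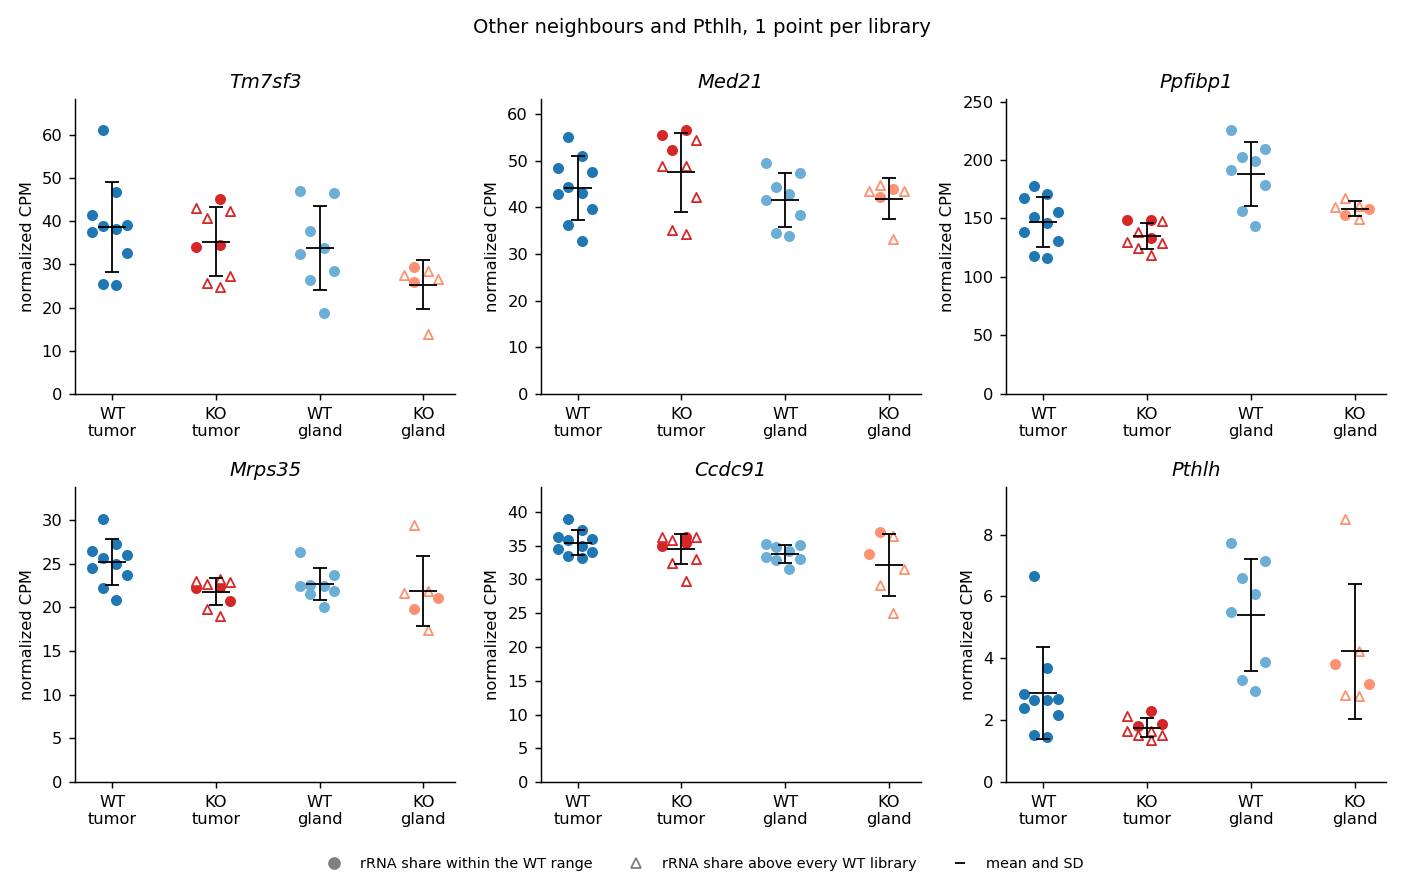
Normalized CPM of Tm7sf3, Med21, Ppfibp1, Mrps35, Ccdc91 and Pthlh in each library, by genotype and tissue, with symbols and bars as in the plot of Arntl2. The genotypes overlap for each of these genes in both tissues.

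The call used here was an adjusted p under 0.1 and a fold over 1.5 in edgeR's quasi-likelihood test. In tumors the call took Arntl2 and Stk38l, 2 of 10, against 0.512% of the genes tested (187 of 36527). Rassf8 also passed the adjusted p in tumors, with a fold of 1.41, where 0.701% of all genes did so at any fold, and it did so in 9 of 11 other settings and in 10 of 12 fits with 1 library left out. In glands the call took Arntl2, Rassf8 and Tead4, 3 of 10, against 0.906% (331 of 36527). Since these contrasts helped to choose the 10 genes, nothing is read from their count. All fits drew on these same libraries, so a call that held in other settings is no support for a gene either. The settings only show how far a value moved. The calls of Tead4 and Arntl2 in glands depended on the setting. Over 10 other settings the Arntl2 difference lay between -1.14 and -0.89, that of Tead4 between -0.82 and -0.24 and that of Rassf8 between 0.55 and 0.69. With only gland libraries in the fit, or with the log10 rRNA share as a covariate, Rassf8 alone remained of the 3, and with additive terms and without the KO libraries of high rRNA share none did, where additive terms with all libraries kept the 3. With the replicate number as a block, Rassf8 and Tead4 remained and Arntl2 did not. Of 12 fits with 1 gland left out, Tead4 was called in 4, those without replicate 1 of the KO glands at 8 or 12 weeks or of the WT glands at 8 or 10 weeks. Arntl2 was called in 1, that without replicate 1 of the WT glands at 10 weeks, with values of -1.06 to -0.82 over the 12 fits. Tead4 was also called in tumors by DESeq2, with no filter on low counts and when KO tumor replicate 1 at 8 weeks was left out, and Far2, at its few reads, was called with stage-matched tumors.

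The 2 tissues were compared in one model, as the WT minus KO difference of glands minus that of tumors at 8 and 10 weeks. This value was 1.25 (SE 0.39) for Arntl2 and 0.58 (SE 0.20) for Stk38l, so both differences were more negative in tumors. For Rassf8 it was 0.29 (SE 0.17) and for Tead4 -0.32 (SE 0.31). None of the 10 was among the 2 genes, 0.00548% of those tested, that were called in this comparison. With no filter on low counts Arntl2 was called as well, and it was not in 6 other settings.

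**Figure D4:**
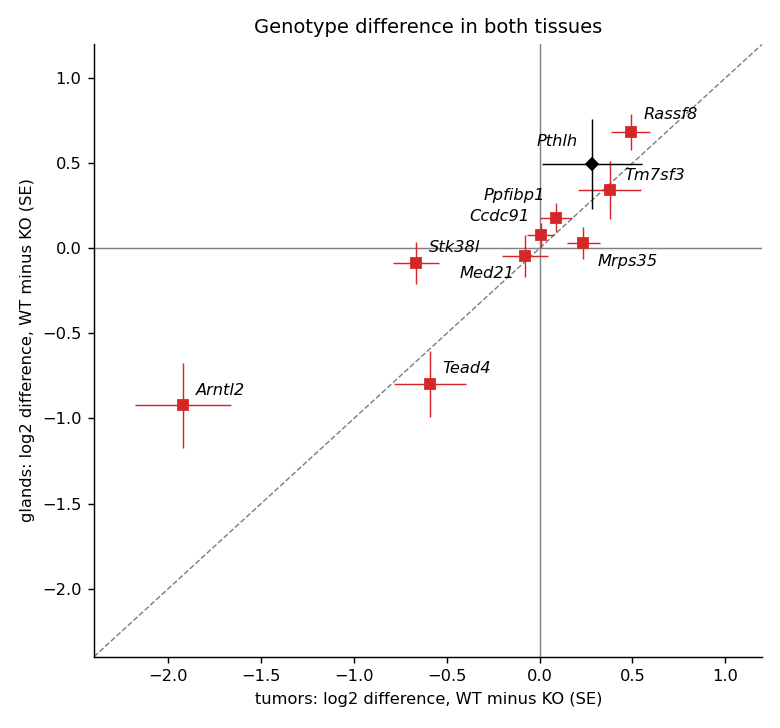
Log2 difference, WT minus KO, in tumors (horizontal) and in glands (vertical) for 9 neighbours and Pthlh, with standard errors as bars; Far2 is left out. The dashed line marks equal differences; Arntl2 is at -1.92 and -0.92, Stk38l at -0.67 and -0.09, and Rassf8 at 0.49 and 0.68.

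The other genes of the region were tested in the same fits. Within 5 Mb of Pthlh lay 116 tested genes, 9 of them among the 10. With these 9, edgeR called 2 of 116 (1.72%) in tumors, Arntl2 and Stk38l, and 2 of 116 in glands, Arntl2 and Rassf8. Since some of the 9 were picked for such differences, neither the count with them nor that without them is a count by position alone. Of the remaining 107 genes, 0 were called in tumors and 0 in glands by edgeR. At an unadjusted p under 0.05, 11 of the 107 passed in tumors, where 10.9% of all genes did, and 9 in glands, where 12.4% did. DESeq2 called 4 in tumors (3.74%, against 1.82% of all genes) and 0 in glands (against 2.03%). The 4 were Gm32914, Gm44164, Gm44270 and Sspn, of which Gm44270 lies inside Stk38l, so that its count is not separate from that of Stk38l. Within 20 Mb edgeR called 2 of 346 genes in tumors and 3 in glands, which were all among the 10. Of the 336 others, 35 and 27 had an unadjusted p under 0.05 and DESeq2 called 8 and 3. On the rest of chromosome 6 edgeR called 7 of 1689 genes in each tissue (0.414%).

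Among the 35 non-members within 5 Mb that had a mean of at least 1 CPM, the median absolute log2 difference was 0.12 in tumors and 0.15 in glands, where it was 0.15 and 0.14 for genes of such levels on other chromosomes. The genes between Arntl2 and Pthlh with such levels were Ppfibp1, Mrps35 and Klhl42, and Klhl42 differed by -0.12 (SE 0.09) in tumors and -0.15 (SE 0.09) in glands. Of the 4 genes that DESeq2 called in tumors, 2 had higher values in WT. Sspn, the gene of sarcospan, differed by 0.83 (SE 0.28, adjusted p = 0.238 in edgeR) in tumors and 0.17 (SE 0.28, adjusted p = 0.974) in glands. The non-coding Gm32914 differed by 1.34 (SE 0.36, adjusted p = 0.119) in tumors and 0.86 (SE 0.37, adjusted p = 0.338) in glands.

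**Figure D5:**
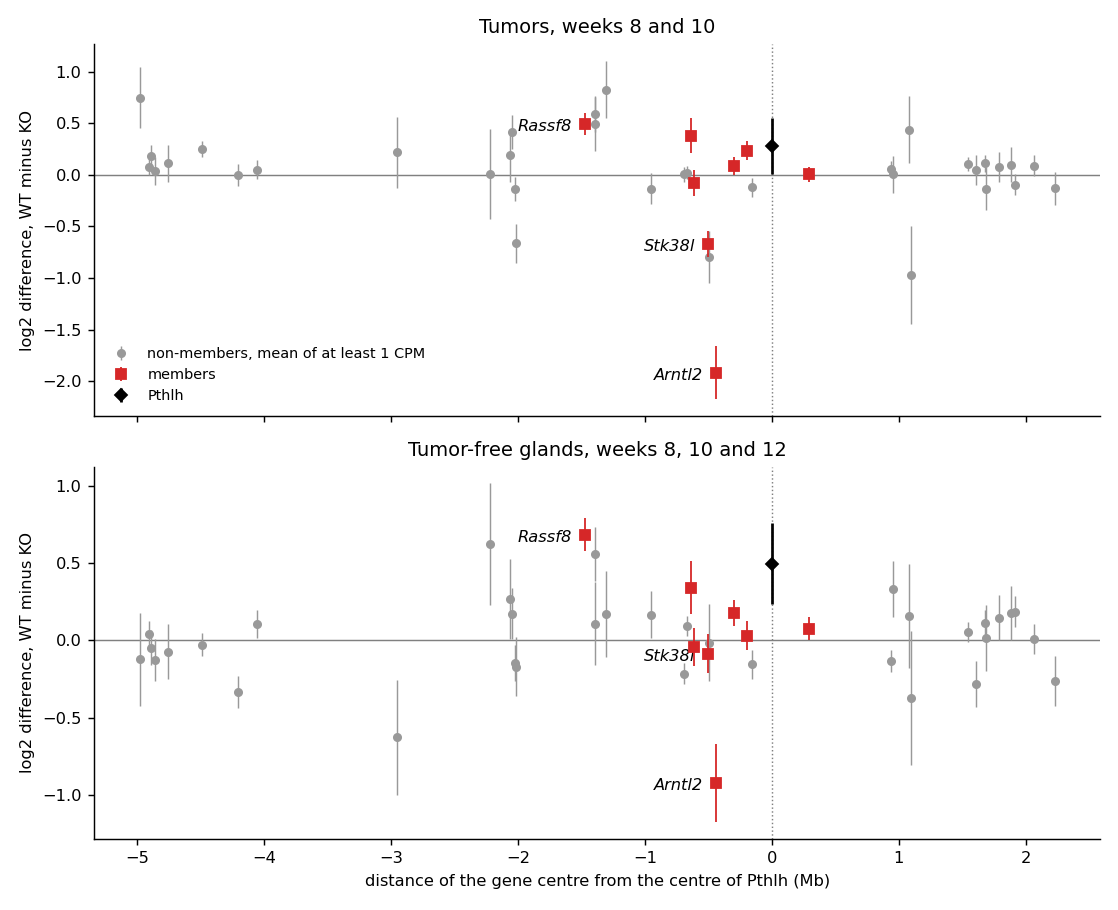
Log2 difference, WT minus KO, with its standard error, against the distance in Mb from Pthlh, in tumors (top) and glands (bottom), for genes within 5 Mb. Red squares are 8 of the 10 neighbours (Tead4 is too far and Far2 too low), gray circles are the 35 other genes with a mean of at least 1 CPM, and the black diamond is Pthlh; Arntl2 is the lowest point in both panels, at -1.92 and -0.92.

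The comparison of tumors with glands did not enter the choice of the 10 genes and was tested. Averaged over 6 comparisons of the same genotype and age, Stk38l was lower in tumors by 0.49 on the log2 scale (value -0.49, SE 0.08, adjusted p = 3.55e-05 in edgeR). Ppfibp1 differed by -0.32 (SE 0.05, adjusted p = 5.6e-05) and Rassf8 by -0.36 (SE 0.07, adjusted p = 0.000145). These 3 passed the adjusted p, as 26.5% of all genes did, but with folds of 1.25 to 1.40 none of the 10 passed the fold of 1.5, against 14.9% of all genes called. Pthlh itself was lower in tumors, by -1.05 (SE 0.17, adjusted p = 2.46e-05). For Stk38l the mean was 112.3 CPM in WT glands and 67.4 CPM in WT tumors, but 116.6 CPM in KO glands and 104.8 CPM in KO tumors. Arntl2 differed by -0.30 (SE 0.16, adjusted p = 0.215 in edgeR). This average joins medians that went opposite ways, as the Arntl2 median was 9.54 CPM in WT glands and 4.88 CPM in WT tumors, but 19.9 CPM in KO glands and 27.2 CPM in KO tumors. Tm7sf3 differed by 0.24 (SE 0.11, adjusted p = 0.127 in edgeR). Neither passed, although Tm7sf3 did in 4 of 9 other settings (adjusted p from 0.0508 to 0.326 in edgeR and DESeq2) and in 6 of 30 fits with 1 library left out (adjusted p from 0.0187 to 0.274), and Arntl2 did in 2 of 30 such fits. Ccdc91 passed in 2 of these 30 fits (lowest adjusted p = 0.0824 in edgeR) and Mrps35 in 1 (adjusted p = 0.0754 in edgeR). Basal cell markers fell with the tumors too, as all 10 of 10 were called lower, and their summed level was 5311 to 20766 CPM in WT glands and 1006 to 3694 CPM in WT tumors. Other markers moved as well. Of 10 each, 4 fibroblast and 3 endothelial markers were called lower in tumors and 0 higher, 4 luminal markers lower and 2 higher, and 2 macrophage and 2 adipocyte markers lower and 1 each higher. Summed macrophage markers were nonetheless higher in tumors, with a median of 242.0 CPM in WT tumors and 90.2 CPM in WT glands, and of 220.0 and 106.0 CPM in KO. Summed fibroblast markers had a median of 2076 CPM in WT glands and 271.2 CPM in WT tumors. The part of this cell makeup in the 3 differences was not tested, and in sorted bulk cells fewer cells of a type and less RNA per cell cannot be told apart. From the first to the last tumor stage, 0 of the 10 genes passed the adjusted p in edgeR, where 0.0493% of all genes were called. Tm7sf3 came nearest, at 0.54 (SE 0.17, adjusted p = 0.340), and passed in 2 of 7 other settings, DESeq2 (adjusted p = 0.0951) and no filter on low counts (adjusted p = 0.0395), and in 1 of 12 fits with 1 library left out, KO tumor replicate 1 at 12 weeks (adjusted p = 0.0752).

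The markers of other cell types were compared between genotypes in the same way. Of 10 luminal, 10 basal, 10 fibroblast, 10 macrophage, 10 endothelial and 10 adipocyte markers, 0 were called between WT and KO in tumors or in glands by edgeR. At an unadjusted p under 0.05, 1 basal, 1 fibroblast and 1 adipocyte marker passed in tumors, and 7 luminal markers and 1 macrophage marker passed in glands, where 10.9% and 12.4% of all genes did. The luminal median difference was 0.48 on the log2 scale in glands and 0.11 in tumors, against 0.14 and 0.05 over all genes. The basal median was -0.22 in glands and -0.56 in tumors, and the endothelial median 0.35 and -0.43. Fibroblast, macrophage and adipocyte medians were 0.37, 0.33 and 0.22 in glands and -0.01, -0.06 and -0.14 in tumors. The part of cell makeup in the tumor values was not tested. Summed luminal markers were at 6475 to 10418 CPM in WT and 5824 to 9583 CPM in KO glands, and their part in the gland values above was not tested. Luminal and basal markers were all detected, and no marker on any of the lists was at 0 in every library. Summed fibroblast markers were at 444.6 to 4360 CPM in glands and 83.8 to 1104 CPM in tumors, macrophage markers at 63.7 to 417.7 CPM, adipocyte markers at 1.24 to 31.1 CPM and endothelial markers at 1.63 to 19.9 CPM over all libraries.

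The pathways of 3 of these genes were looked at through lists. Of 20 other Hippo genes, 0 were called between WT and KO in tumors and 0 in glands by edgeR, against 0.512% and 0.906% of all genes, and 2 in each tissue had an unadjusted p under 0.05, against 10.9% and 12.4%. Their median difference was -0.09 in tumors and -0.02 in glands. All genes of this list and of the clock list below had a mean of at least 1 CPM. Of genes of such levels on other chromosomes, edgeR called 1.18% in tumors, and 19.9% had an unadjusted p under 0.05 there. Stk38, the kinase most like Stk38l, differed by -0.06 (SE 0.07) in tumors, and Tead1, a relative of Tead4, by -0.47 (SE 0.18, adjusted p = 0.318). Of 19 other circadian clock genes, 2 were called in tumors and 0 in glands, with unadjusted p under 0.05 for 6 and 4, against the same shares of all genes. The list holds 1 gene of the region, Bhlhe41, a clock repressor that ends 1387 kb from Pthlh. It differed by 0.59 (SE 0.18, adjusted p = 0.175 in edgeR) in tumors and 0.56 (SE 0.18, adjusted p = 0.160) in glands and was called in neither, but it was called in tumors with no filter on low counts, and in glands with additive terms and without KO gland replicate 1 at 12 weeks. The median difference over the clock list was 0.04 in tumors and 0.12 in glands. Both called genes were higher in KO tumors. They were Per1, a light- and cAMP-inducible clock repressor, at -0.94 (SE 0.18, adjusted p = 0.0202), and Nr1d1, the nuclear receptor REV-ERB alpha, at -0.71 (SE 0.17, adjusted p = 0.0823). Arntl, the close relative of Arntl2, differed by 0.12 (SE 0.13), and Clock by -0.09 (SE 0.06).

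The genes whose levels were most strongly correlated with those of Arntl2, in either direction, were all on other chromosomes. Pearson's r of log2 CPM was computed with 13323 genes over the 33 libraries, which differ in genotype, tissue, age and depth, so that genes can be correlated through any of these. The 5 with the largest absolute r all ran opposite to Arntl2. AA465934 on chromosome 11 (r = -0.82) had medians of 5.38 CPM in WT and 1.09 CPM in KO tumors and of 3.51 and 1.04 CPM in glands. Gm5182 on chromosome 12 (r = -0.73) had medians of 5.27 and 0.0833 CPM in tumors and of 4.68 and 0.0385 CPM in glands. Tlcd2 on chromosome 11 (r = -0.72) had medians of 22.0 and 3.56 CPM in tumors and of 9.49 and 5.43 CPM in glands. Gtpbp6 on chromosome 5 (r = -0.76) and Zfp748 on chromosome 13 (r = -0.72) differed less, with medians of 31.1 and 25.5 CPM and of 24.7 and 20.8 CPM in WT and KO tumors. Of the other neighbours, Stk38l had the largest absolute r with Arntl2, at 0.64 and rank 28.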

How the data were processed

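Total RNA of sorted GFP+ cells was depleted of rRNA and sequenced as stranded libraries. The authors aligned reads with HISAT to GRCm38 and a Gencode transcriptome, marked and dropped duplicates (Picard 1.128), counted with HTSeq, and deposited whole-number counts for 33 libraries. Whether counting used strand is not given in the sources used here. The authors also deposited a signal table of counts divided by size factors, from which whole reads were recovered for 100% of values in every library, within 0.01 of a whole number. The 111 rows that are no gene, such as spike-ins, held 0.0778% of reads and were left out.

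Genes with at least 10 summed reads were fitted in R 4.3.3 with edgeR 4.0.16 (TMM, quasi-likelihood, 1 mean per genotype, tissue and age), and DESeq2 1.42.0 was an alternative. Adjusted p-values are Benjamini-Hochberg values over all 36527 genes. Tumors were compared at 8 and 10 weeks and glands at 8, 10 and 12 weeks. P-values measure the spread between mice. Fits with 1 library left out kept the dispersion trend of the full fit. On simulated counts the fit recovered 87.0% of 200 genes changed by 1 on the log2 scale in tumors (8 false calls among 35114 genes) and 86.5% in glands (15 among 35117). There all groups shared the same mean before the change, counts were drawn independently, and only genes with a mean of at least 1 CPM were changed. No difference in rRNA share and no outlying library was simulated, so these rates need not hold for the real libraries. Replicate numbers did not pair samples by mouse, since every library was labelled with a different mouse number. Between samples of the same replicate number, the correlation of deviations had a median of 0.03 over 171 pairs and was over 0.1 in 58. It was not compared with pairs of different numbers, so nothing is read from it.

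Gene positions are those of GENCODE on GRCm38, and 125 tested genes without a position were left out of counts by distance. The members and lists were chosen with earlier results of these data known. The text names the 10 genes, Pthlh, called genes within 5 Mb, the 5 genes most correlated with the member of the largest mean difference, and called genes of the Hippo and clock lists; others are named as chosen after their values were seen or as close relatives.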

Additional observations from a re-analysis of the deposited data

Results flagged for a closer look

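In 6 of 40 sets of values, 1 library stood apart from the others of its genotype and tissue by a gap that is large against the range of the set. Chance alone would give about 1 in 20 for independent sets of normal values. The sets here joined several ages and shared libraries, so 6 of 40 is not read as an excess over chance. Rassf8 was at 12.6 CPM in the single WT tumor of 12 weeks, with 16.5 CPM in the next lowest WT tumor, and at 18.2 CPM in KO tumor replicate 1 at 12 weeks, with 13.9 CPM in the next. Tm7sf3 was at 13.9 CPM in KO gland replicate 2 at 12 weeks, against 25.8 CPM in the next. In the same library, whose rRNA share was 18.8%, Mrps35 was at 29.4 CPM, against 21.9 CPM in the next. Med21 was at 33.1 CPM in KO gland replicate 2 at 8 weeks, whose rRNA share was 15.7%, against 42.2 CPM in the next. Far2 was at 0.263 CPM in WT gland replicate 2 at 8 weeks, against 0.102 CPM in the next, both of them few reads.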

How the results depend on the processing

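No called difference of the 10 genes changed direction under any setting run. Counts over all genes moved more. In tumors 664 genes were called by DESeq2, 573 with no filter on low counts, 323 with filterByExpr, 116 with the rRNA share as covariate, 152 from all ages with additive terms, 41 with these terms and without the KO libraries of high rRNA share, and 404 with stage-matched tumors. In glands the same settings gave 741, 722, 509, 52, 503 and, without those KO libraries, 22, with 67 from gland libraries alone. The comparison of tissues gave 74 with DESeq2 and 138 without the filter, and tumor progression 333, 462 and, with the rRNA share, 45. Leaving out 1 library gave 50 to 586 calls in tumors, 60 to 775 in glands, 0 to 14 for the comparison of tissues, 4835 to 5526 between tumors and glands and 1 to 281 for progression. The lowest counts came without KO tumor replicate 2 at 8 weeks and KO gland replicate 2 at 8 weeks, and the highest without KO tumor replicate 1 at 8 weeks and KO gland replicate 1 at 12 weeks. Of the 10 genes, 2 to 3 were then called in tumors and 1 to 3 in glands, and 1, 1 and 0 were called in glands with the rRNA share, with gland libraries alone and without the high-rRNA KO libraries. Non-members within 5 Mb were 0 to 3 in tumors and 0 to 2 in glands with 1 library left out, and 4 with DESeq2, 4 without the filter, 2 with filterByExpr, 1 with stage-matched tumors and 1 with the replicate block in tumors, and 1 with filterByExpr and 1 with additive terms in glands. The replicate block, which has no basis in shared animals, gave 238 calls in tumors and 317 in glands. Leaving out libraries outside the WT against KO comparisons, and additive terms for tumors against glands, were added after the data were seen. The causes of these shifts were not tested.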

Other observations

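The Arntl2 values in glands differed by age in a way that the average hides. At 8 weeks the KO glands were at 12.35 and 12.7 CPM and the WT glands at 11.4 and 11.6 CPM, so the genotypes were close. At 10 weeks the KO glands were at 23.7 and 24.4 CPM and the WT glands at 12.8 and 7.72 CPM, and at 12 weeks the KO glands were at 23.2 and 16.6 CPM and the WT glands at 7.23 and 7.66 CPM. In tumors the genotypes were apart at 8 weeks, with means of 6.48 ± 2.02 CPM in WT and 18.1 ± 10.1 CPM in KO (SD, n = 3 each), and at 10 weeks, with 5.74 ± 2.24 and 29.3 ± 1.85 CPM. The change with age was not tested.

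Called genes were counted over stretches of 10 Mb of chromosome 6. The stretch from 30 to 40 Mb held 4 of 138 tested genes called in tumors, namely Akr1b3, Atp6v0c-ps2, Hipk2 and Klrg2, and 1 of 138 in glands, Tmem140. The stretch from 140 to 150 Mb, which holds Pthlh, had 2 of 142 called in each tissue, all of them among the 10 neighbours. The stretch from 110 to 120 Mb, which holds the Rosa26 locus of the reporter that both genotypes carry, had 0 of 155 called in tumors and 2 in glands, Lmcd1 and Rasgef1a.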
